A study of Mus musculus with 6 samples.

Results

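Amino acid and neurotransmitter transporters of the solute carrier (SLC) superfamily were examined in sorted cells of mouse small-cell lung cancer. The members are the genes of the SLC1, SLC3, SLC6, SLC7, SLC17, SLC18, SLC32, SLC36, SLC38 and SLC43 families that an array row names alone, taken by symbol. The rule uses no measured value, but the families were proposed with earlier results of these data known. A gene with several rows was represented by the row with the highest mean. The rule gave 77 of the 22179 genes measured. Of these, 73 had been placed in lists by transport role, 1 (Slc6a21) had not, and 3 (Slc7a6os, Slc6a19os and Slc36a1os) are genes on the opposite strand of a transporter gene that share its symbol stem and are not transporters.

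The tumours arose in mice with conditional alleles of Rb, p53 and p130, after Adeno-Cre was instilled into the trachea, in animals that had GFP as a reporter of Hes1, a repressor induced by Notch signalling. Both groups come from animals with the same alleles and differ in the sorted level of GFP. Whether the sorted cells of either group had recombined those alleles was not tested: Rb1 was lower in GFP-high cells by the array (-1.60 ± 0.19 on the log2 scale) and Rbl2, which encodes p130, higher (0.53 ± 0.12), and the labels do not say whether their probes lie in the deleted parts. Tumours of 3 mice were pooled 5 to 6 months after Cre and sorted into GFP-negative (labelled negative / low) and GFP-high cells, with 3 samples of each on Affymetrix Mouse Gene 2.0 ST arrays. GFP was the sole marker of the sort that the labels name, and they name no cell type to which the virus was restricted. The titles call the samples biological replicates, but the labels do not state whether each replicate was a separate pool (they speak of pooled tumours from a mouse in one place and from 3 mice in another), so the p-values measure the spread between these samples. Age and strain are not stated there.

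Amino acid transporters move amino acids across the plasma membrane or out of lysosomes, by sodium or proton coupling or by exchanging one amino acid for another. Heteromeric transporters pair a glycoprotein heavy chain of the SLC3 family with a light chain of the SLC7 family, which sets the substrate. Neurotransmitter transporters either load transmitters into vesicles or take them up again from outside the cell. Neuroendocrine cells, the cell type that small-cell lung cancer resembles, store amines and peptides in dense-core vesicles.

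The log2 value of Hes1 was 10.40 ± 0.11 in the GFP-high group against 6.85 ± 0.18 in the other (SD, n = 3 each). Across 22179 genes the log2 values of arrays of a group correlated at 0.987 to 0.991, and those of different groups at 0.918 to 0.940. All 10 measured neuroendocrine markers, such as Chga and Syp, were lower in GFP-high cells, with an array mean of 7.66 to 8.64 against 10.20 to 10.35. Markers of club and secretory cells (7 of 8), alveolar type 2 cells (8 of 9) and alveolar type 1 cells (7 of 7) were higher, with array means of 12.15 to 12.37 against 8.08 to 8.89, 10.16 to 10.69 against 6.37 to 6.79, and 8.88 to 9.28 against 6.42 to 6.63. Of the other marker lists, 1 of 8 leukocyte markers fell, none of 7 macrophage or 4 glial markers passed (0 and 0 at an unadjusted p under 0.05 by limma), 1 of 7 fibroblast markers fell, and 1 endothelial marker of 8 rose and 1 fell. Among 8 ciliated cell markers 1 rose and 2 fell. In sorted bulk samples, fewer cells of a type and less RNA per cell cannot be told apart. The part of the marker differences in the transporter results was not tested.

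The transporters changed in both directions. At an adjusted p under 0.05, 13 of the 77 members (16.9%) were higher in GFP-high cells, against 13.0% of all genes, and 19 (24.7%) were lower, against 17% of all genes. In either direction 41.6% of the members and 30% of all genes passed. Rises of at least 1 on the log2 scale (a doubling) were seen in 7 members (9.09%, against 5.63% of all genes). Falls of at least 1 were seen in 14 members (18.2%, against 6.02% of all genes). The values of the groups were fully separated for 50.6% of members, with GFP-high above in 19 and below in 20. Over all genes the corresponding shares were 44.6% in either direction, 20.0% above and 24.6% below. The median change of the members was 0.03 and that of all genes 0.01, and the median absolute change 0.26 against 0.24. The widest change that did not pass was that of Slc1a2, 0.40. Of the members, 19 lay among the 30% of genes with the lowest mean on the array, and none of these passed (1, Slc1a3, at an unadjusted p under 0.05 by limma).

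**Figure D1:**
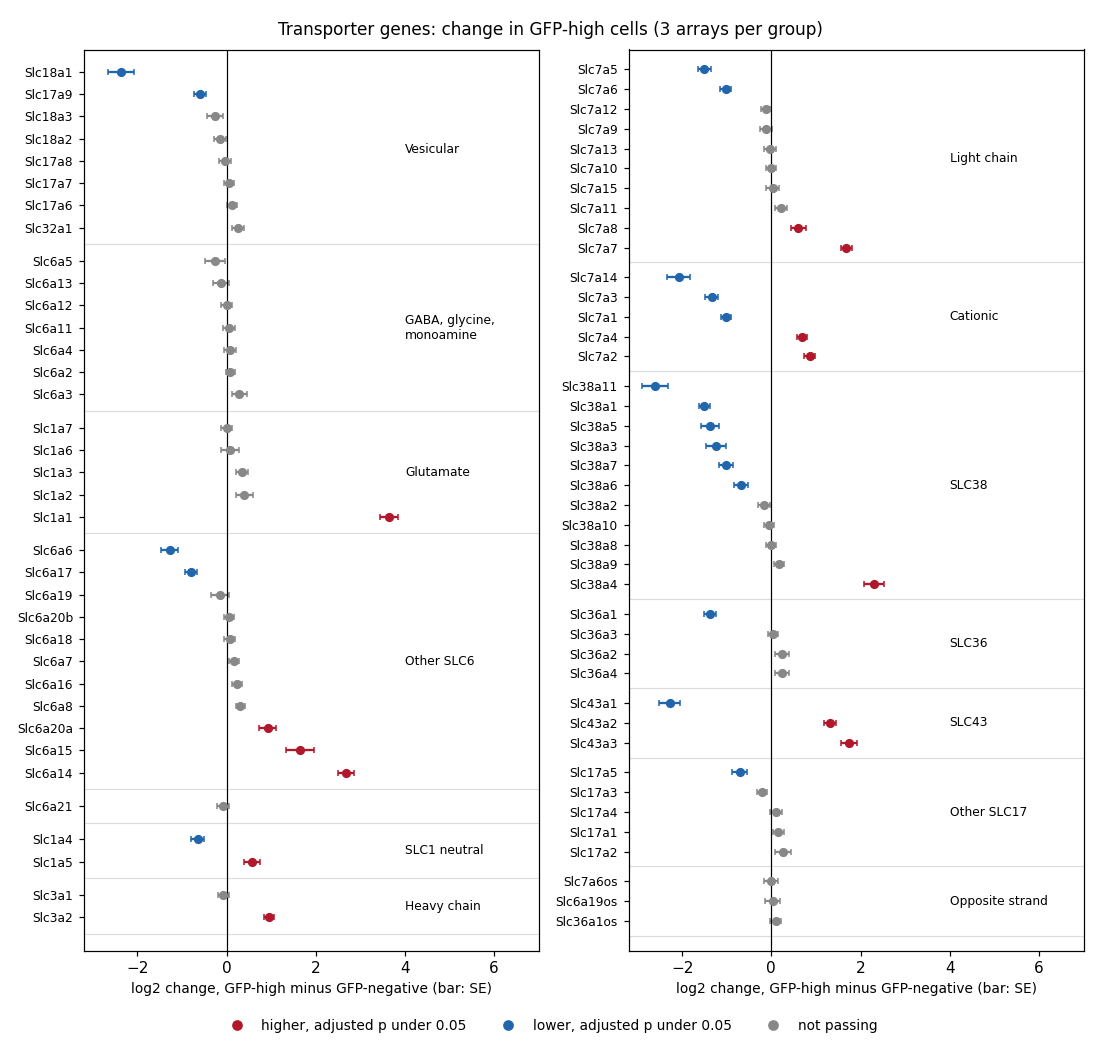
Log2 change of each of the 77 members, GFP-high minus GFP-negative, with its standard error (n = 3 arrays per group), in lists by role. Red and blue points passed an adjusted p under 0.05 as higher (13) or lower (19), and grey points did not pass. The widest rise is that of Slc1a1 (3.64) and the widest fall that of Slc38a11 (-2.61).

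**Figure D2:**
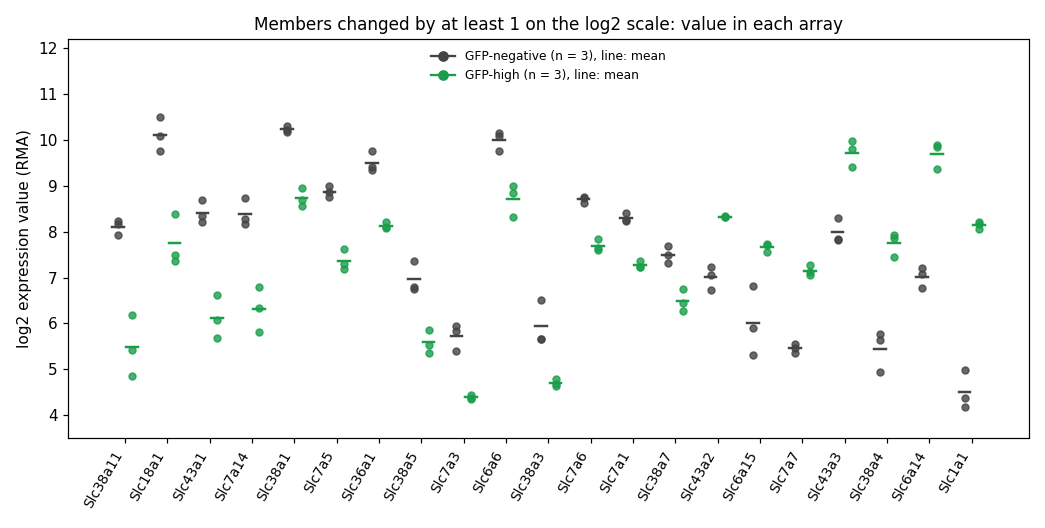
Log2 expression value in each array of the 21 members that passed with a change of at least 1, ordered from the widest fall to the widest rise, with 3 GFP-negative (grey) and 3 GFP-high (green) arrays and the group means as lines. The groups do not overlap for any of the 21, and heights of different genes cannot be compared because each row has its own probes.

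Among the transporters that load vesicles, the vesicular monoamine transporter of neuroendocrine cells fell. Slc18a1, which encodes VMAT1, read 7.48, 7.36 and 8.39 in GFP-high replicates 1 to 3, against 10.09, 10.50 and 9.75 in GFP-negative replicates 1 to 3. The same order is used for all genes, and the labels do not say whether arrays with the same number share a pool. Every GFP-high value lay below every GFP-negative value, and GFP-high replicate 3 lay highest of its group. The change was -2.37 ± 0.29 on the log2 scale (SE), a 5.17-fold lower signal (adjusted p = 0.000346 by limma). Its relative Slc18a2 (VMAT2), the monoamine transporter of neurons, did not pass: its change was -0.15, with a 95% interval of -0.48 to 0.18. Slc17a9, which carries ATP and other nucleotides into vesicles, fell by 0.59 ± 0.13 (adjusted p = 0.00954). Its values were 6.14, 6.07 and 6.22 against 6.63, 6.98 and 6.60, closer within the GFP-high group (SD 0.08) than within the GFP-negative group (0.21).

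The other 6 vesicular transporters did not pass, with changes between -0.26 and 0.26. They were the glutamate transporters Slc17a6, Slc17a7 and Slc17a8, the acetylcholine transporter Slc18a3, the GABA and glycine transporter Slc32a1 and Slc18a2. Slc6a17, a member of the SLC6 family found on synaptic vesicles, fell by 0.80 ± 0.14 (adjusted p = 0.00312), with GFP-high values of 5.62, 5.85 and 5.36 against 6.47, 6.31 and 6.44. Of the 8 genes of the vesicular list, which does not hold Slc6a17, 2 fell (25%, against 17% of all genes) and none rose.

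Enzymes that make and degrade the same amines were read from a separate list. Among 12 measured 4 fell (33.3%, against 17% of all genes), 1 rose (8.33%, against 13%) and 7 did not pass. Tph1, the rate-limiting enzyme of serotonin synthesis outside the brain, fell by 2.42 ± 0.44 on the log2 scale (adjusted p = 0.00331 by limma). Ddc, which makes serotonin and dopamine from their precursors, fell by 2.17 ± 0.31. Th, the rate-limiting enzyme of catecholamine synthesis, fell by 1.05 ± 0.12. Maob, a mitochondrial enzyme that degrades amines, rose by 3.38 ± 0.21 (adjusted p = 9.03e-06). VMAT1, Tph1, Ddc and Th thus all fell, and so did the neuroendocrine markers. The marker medians were -2.53, -2.72 and -1.73 in GFP-high replicates 1 to 3 from the GFP-negative mean. Within the GFP-high group VMAT1, Tph1 and Ddc were highest in replicate 3, whereas Th was lowest there (5.31, 5.30 and 5.09). A link between these genes and the markers was not tested.

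Transporters that take transmitters up at the plasma membrane showed a single change. None of the 7 measured GABA, glycine and monoamine transporters passed (0 at an unadjusted p under 0.05 by limma), against 30% of all genes. Their changes lay between -0.26 and 0.29. Among them were Slc6a2, Slc6a3 and Slc6a4, which take up noradrenaline, dopamine and serotonin. Of the 5 glutamate transporters 1 rose (20%, against 13% of all genes) and none fell. Slc1a1, which encodes EAAT3, an epithelial and neuronal carrier of glutamate, aspartate and cysteine, read 8.22, 8.05 and 8.17 against 4.38, 4.18 and 4.98. The gap between the groups was wide and the GFP-high arrays lay close together. The change of 3.64 ± 0.20, a 12.4-fold higher signal (adjusted p = 3.85e-06), was the widest of all members in the deposited values. Whether its GFP-negative signal lay above background was not assessed, so this fold is not a measure of the full difference. The astroglial transporters Slc1a2 (0.40, interval -0.04 to 0.84) and Slc1a3 (0.35, interval 0.03 to 0.67, adjusted p = 0.099 by limma) did not pass, nor did Slc1a6 (0.08) and Slc1a7 (0.00). The call for Slc1a3 was gained without GFP-negative replicate 1 (adjusted p = 0.0406).

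Glutamate, glutamine and GABA enzymes were mostly lower. Of 8 measured, 5 fell (62.5%, against 17% of all genes), 1 rose (12.5%, against 13%) and 2 did not pass. Glul, which makes glutamine from glutamate, rose by 1.26 ± 0.15 (adjusted p = 0.000267 by limma). The mitochondrial aspartate aminotransferase Got2 fell by 1.21 ± 0.12, Gad1, which makes GABA, by 1.10 ± 0.27, and Abat, which degrades GABA, by 1.06 ± 0.13 on the log2 scale.

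The other SLC6 transporters contained the second widest rise. Slc6a14 encodes a sodium and chloride coupled transporter of neutral and cationic amino acids known from airway and gut epithelium. It read 9.85, 9.36 and 9.89 against 7.20, 7.08 and 6.77. The groups stood well apart, and the change was 2.68 ± 0.18, a 6.43-fold higher signal (adjusted p = 1.32e-05). Slc6a15, a transporter of branched-chain amino acids and proline known from brain, read 7.72, 7.56 and 7.71 against 5.32, 5.89 and 6.82. Its GFP-negative arrays spread over a wider range than the GFP-high arrays, with replicate 3 highest. The change of 1.65 ± 0.32 passed with limma (adjusted p = 0.0043) and did not without moderation of the variance (0.0723).

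Slc6a20a, an imino acid transporter, rose by 0.92 ± 0.19 (adjusted p = 0.00627, and 0.0667 without moderation), with values of 9.88, 9.52 and 9.45 against 9.01, 8.75 and 8.34. Its neighbouring relative Slc6a20b gave 0.06 (interval -0.19 to 0.32), and whether the probes of either row also match the other gene was not tested. The taurine transporter Slc6a6 moved the other way, with 8.85, 8.31 and 8.99 against 10.14, 10.08 and 9.76. It fell by 1.27 ± 0.19 (adjusted p = 0.0011). The creatine transporter Slc6a8 lay close to the threshold. Its GFP-high values of 9.58, 9.69 and 9.62 were all above the GFP-negative values of 9.34, 9.27 and 9.36, and its change of 0.31 (interval 0.07 to 0.55) missed it (adjusted p = 0.0553 by limma). That call was gained under quantile normalization (adjusted p = 0.0378), without the 30% of genes with the lowest means (0.0317), with trend and robust moderation (0.0205) and without moderation (0.0175). In this list of 11 genes 3 rose and 2 fell, the second fall being that of Slc6a17. The shares were 27.3% higher and 18.2% lower, against 13% and 17% of all genes.

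Among the heteromeric transporters a heavy chain and some of its light chains rose while other light chains fell. The heavy chain Slc3a2, also called CD98hc, read 10.37, 10.08 and 10.15 against 9.28, 9.26 and 9.21. It rose by 0.95 ± 0.12, a 1.93-fold higher signal (adjusted p = 0.000388). The other heavy chain, Slc3a1, a subunit of the renal cystine transporter, gave -0.07 (interval -0.36 to 0.22).

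Of 10 measured light chains, 2 rose, 2 fell and 6 did not pass. That is 20% in each direction, against 13% of all genes higher and 17% lower. Slc7a5, which encodes LAT1, the exchanger that imports leucine and other large neutral amino acids in many tumours, read 7.62, 7.30 and 7.19 against 8.86, 8.75 and 8.99. Its groups stood apart by more than the spread of either, and it fell by 1.50 ± 0.14 on the log2 scale, a 2.82-fold lower signal (adjusted p = 9.65e-05). Slc7a6, which encodes y+LAT2 and trades cationic against neutral amino acids, read 7.64, 7.59 and 7.84 against 8.75, 8.63 and 8.74 and fell by 1.02 ± 0.12 (adjusted p = 0.000244). The closely related y+LAT1 moved in the opposite direction. Its gene, Slc7a7, read 7.13, 7.05 and 7.27 against 5.47, 5.36 and 5.56 and rose by 1.68 ± 0.12, a 3.21-fold higher signal (adjusted p = 1.64e-05).

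Slc7a8, which encodes LAT2, a relative of LAT1 with a broader range of neutral substrates, rose by 0.60 ± 0.17 (adjusted p = 0.0271), with 5.84, 6.49 and 6.10 against 5.46, 5.67 and 5.49. That call was lost when any of 4 arrays was left out: GFP-high replicate 2 (adjusted p = 0.0679), GFP-high replicate 3 (0.0546), GFP-negative replicate 1 (0.0875) or GFP-negative replicate 3 (0.0725), and without moderation (0.117). Slc7a11, which encodes xCT, the cystine and glutamate exchanger that supplies cysteine for glutathione, did not pass, with 5.03, 4.79 and 4.69 against 4.66, 4.40 and 4.79. Its change was 0.22 with an interval of -0.11 to 0.55, and its groups overlapped. A second row for Slc7a11 gave 0.30 and did not pass either. Slc7a10 (-0.01), Slc7a9 (-0.12), Slc7a12 (-0.13), Slc7a13 (-0.03) and Slc7a15 (0.03) had small changes that did not pass.

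**Figure D3:**
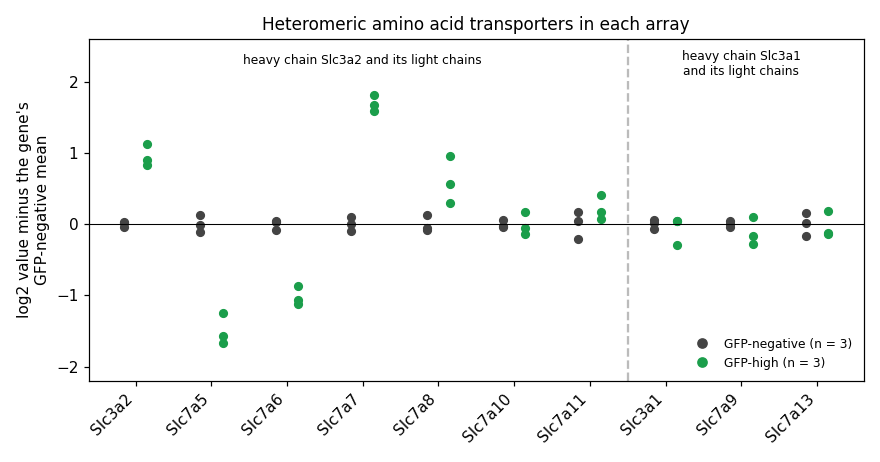
Log2 value of the heavy chains Slc3a2 and Slc3a1 and of light chains that pair with them, in each array, as the distance from the mean of the gene's 3 GFP-negative arrays. GFP-high arrays (green) lie above all GFP-negative arrays (grey) for Slc3a2, Slc7a7 and Slc7a8, below them for Slc7a5 and Slc7a6, and among them for Slc3a1, Slc7a9, Slc7a10, Slc7a11 and Slc7a13.

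Cystine and cysteine uptake feeds the synthesis of glutathione. A list of glutathione synthesis and redox genes gave 7 up, 2 down and 2 not passing of 11. The shares were 63.6% higher and 18.2% lower, against 13% and 17% of all genes. Among the genes of glutathione itself, glutathione synthetase (Gss) rose by 2.03 ± 0.11 (adjusted p = 4.86e-06 by limma), Gclc, the catalytic subunit of the rate-limiting enzyme of its synthesis, by 0.60 ± 0.11, the reductase Gsr by 0.58 ± 0.12 and the peroxidase Gpx4 by 0.42 ± 0.11. Gclm, the modifier subunit that pairs with Gclc, fell by 0.39 ± 0.12 on the log2 scale (adjusted p = 0.0348). The other 3 rises were of redox genes that neither make nor use glutathione: the quinone reductase Nqo1 (2.82 ± 0.21), the transcription factor Nfe2l2, or NRF2 (1.31 ± 0.15), and haem oxygenase 1, Hmox1 (1.05 ± 0.12). Srxn1, which repairs oxidised peroxiredoxins, fell by 0.85 ± 0.25 (adjusted p = 0.0304), and Keap1 (0.33) and Txnrd1 (-0.16) did not pass.

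All 5 cationic amino acid transporters and relatives passed, 3 as lower and 2 as higher. Of all genes, 17% were lower and 13% higher. Slc7a1, which encodes CAT1, the widely expressed importer of arginine and lysine, read 7.37, 7.24 and 7.24 against 8.24, 8.25 and 8.40, and fell by 1.02 ± 0.11 (adjusted p = 0.000206). Slc7a3, which encodes CAT3, known from neurons, read 4.36, 4.44 and 4.38 against 5.41, 5.84 and 5.94 and fell by 1.34 ± 0.15 (adjusted p = 0.000243). The GFP-high values of both genes lay within a narrow band, and whether those of Slc7a3 lay above background was not assessed. Slc7a14, a lysosomal relative known from neural tissue, read 6.33, 5.81 and 6.79 against 8.27, 8.73 and 8.17 and fell by 2.08 ± 0.25, a 4.23-fold lower signal (adjusted p = 0.00032). Slc7a2, which encodes CAT2, the arginine importer induced in inflammation, rose by 0.86 ± 0.12 (adjusted p = 0.000708), with 7.61, 7.78 and 7.78 against 6.86, 6.73 and 6.99. Slc7a4, a relative with no settled substrate, rose by 0.69 ± 0.12 (adjusted p = 0.00291). The arginine importers CAT1 and CAT2 thus moved in opposite directions.

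The sodium-coupled neutral amino acid transporters of the SLC38 family were mostly lower, with 6 of 11 down, 1 up and 4 not passing. The shares were 54.5% lower and 9.09% higher, against 17% and 13% of all genes. Slc38a11, a family member whose transport role is little known, read 5.43, 4.86 and 6.18 against 8.16, 7.92 and 8.23. It had the widest fall of all members, -2.61 ± 0.29, a 6.10-fold lower signal (adjusted p = 0.000219), and GFP-high replicate 3 lay highest of its group. Slc38a1, a glutamine importer abundant in neurons, read 8.69, 8.55 and 8.95 against 10.18, 10.31 and 10.22 and fell by 1.50 ± 0.13 (adjusted p = 6.15e-05). Slc38a5 and Slc38a3, which move glutamine, histidine and asparagine in either direction across the membrane, both fell. Slc38a5 read 5.54, 5.36 and 5.86 against 6.75, 7.36 and 6.80, a fall by 1.38 ± 0.20 on the log2 scale (adjusted p = 0.000793). Slc38a3 read 4.69, 4.78 and 4.64 against 5.65, 5.65 and 6.51, with GFP-negative replicate 3 apart from the others. It fell by 1.24 ± 0.22 (adjusted p = 0.00296 by limma, and 0.0544 without moderation). Whether its GFP-high signal lay above background was not assessed.

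Slc38a7, which exports glutamine from lysosomes, read 6.26, 6.44 and 6.76 against 7.49, 7.69 and 7.32 and fell by 1.01 ± 0.16 (adjusted p = 0.00141). Slc38a6 fell by 0.68 ± 0.15 (adjusted p = 0.00755, and 0.052 without moderation). The family's exception was Slc38a4, an importer of neutral amino acids known from liver, which read 7.86, 7.93 and 7.44 against 5.77, 5.63 and 4.94. It rose by 2.30 ± 0.23, a 4.91-fold higher signal (adjusted p = 0.000126). Slc38a2, the importer induced when amino acids are scarce, gave -0.16 (interval -0.47 to 0.14) with overlapping groups. Slc38a9, the lysosomal arginine sensor, gave 0.18 (interval -0.07 to 0.43). Slc38a8 (0.00) and Slc38a10 (-0.05) did not pass.

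Slc38a1, Slc38a2 and Slc38a4 lie next to each other in the RefSeq annotation, with 0 other protein-coding genes between neighbours. Along this run of relatives 1 gene fell (-1.50), 1 did not pass (-0.16) and 1 rose (2.30). Slc43a1 and Slc43a3 also lie close, with 1 coding gene between them, and changed in opposite directions.

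The SLC43 family of 3 genes split in this way, with 66.7% higher and 33.3% lower, against 13% and 17% of all genes. Slc43a1, which encodes LAT3, a facilitative transporter of large neutral amino acids, read 6.07, 5.68 and 6.63 against 8.33, 8.68 and 8.22. It fell by 2.28 ± 0.23, a 4.86-fold lower signal (adjusted p = 0.000146). Slc43a2, which encodes LAT4 with similar substrates, read 8.35, 8.31 and 8.31 against 6.73, 7.22 and 7.06 and rose by 1.32 ± 0.14 (adjusted p = 0.000176). Slc43a3, which carries purine bases and not amino acids, read 9.97, 9.41 and 9.79 against 7.82, 7.85 and 8.29 and rose by 1.74 ± 0.18 (adjusted p = 0.000175). For large neutral amino acids, then, LAT1 and LAT3 were lower and LAT2 and LAT4 higher in GFP-high cells, with the call for LAT2 lost without any of the 4 arrays named above.

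Of the 4 genes of the proton-coupled SLC36 family, Slc36a1 fell (25%, against 17% of all genes). This lysosomal exporter of small amino acids read 8.11, 8.07 and 8.20 against 9.40, 9.76 and 9.35, a fall by 1.38 ± 0.14 on the log2 scale (adjusted p = 0.000119). Slc36a2 (0.24) and Slc36a3 (0.03) did not pass. Slc36a4 had rows that disagreed. The row used gave 0.24 (interval -0.13 to 0.61), with 10.07, 10.34 and 9.82 against 9.96, 9.63 and 9.92, whereas a second row gave -0.94 ± 0.18, with 7.15, 6.74 and 7.28 against 8.01, 8.16 and 7.81. In a fit of every row of the table the second row passed (adjusted p = 0.00896 by limma) and the first did not (0.401), so no direction is given for this gene.

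The 2 small neutral amino acid exchangers of the SLC1 family parted as well (50% in each direction, against 13% of all genes higher and 17% lower). Slc1a4, which encodes ASCT1, carries serine, alanine and cysteine. It read 7.12, 7.18 and 7.59 against 7.83, 7.97 and 8.04 and fell by 0.65 ± 0.15 (adjusted p = 0.00981, and 0.0585 without moderation). Slc1a5, which encodes ASCT2, the glutamine exchanger used by many tumour cells, read 9.13, 9.64 and 9.36 against 8.67, 9.06 and 8.67 and rose by 0.57 ± 0.17 (adjusted p = 0.0325). The groups of Slc1a5 were separated by a narrow margin. Its call was lost without GFP-high replicate 2 (adjusted p = 0.105), GFP-high replicate 3 (0.0679), GFP-negative replicate 1 (0.109) or GFP-negative replicate 3 (0.0962), and without moderation (0.128). A second row for the gene gave 0.41. In a fit of every row of the table neither the row used (adjusted p = 0.0672 by limma) nor the second row (0.151) passed.

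Of the 5 other SLC17 genes 1 fell (20%, against 17% of all genes). This gene, Slc17a5, which encodes the lysosomal sialic acid exporter sialin, read 8.13, 7.90 and 8.44 against 8.89, 9.05 and 8.66. It fell by 0.71 ± 0.17 (adjusted p = 0.011, and 0.0737 without moderation). Slc17a1, Slc17a2, Slc17a3 and Slc17a4, anion and phosphate transporters known from kidney and gut, lie in a row in the annotation, and their changes of -0.21 to 0.27 did not pass. The opposite-strand genes Slc7a6os (-0.01), Slc6a19os (0.03) and Slc36a1os (0.10) did not pass, while Slc7a6 and Slc36a1, next to the first and the last of them, fell.

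The GFP-high arrays differed among themselves. In 14 of the 19 members that fell, GFP-high replicate 3 had the highest of the 3 GFP-high values (73.7%), against 62.0% of all genes called lower. All 10 neuroendocrine markers also had their highest GFP-high value in replicate 3. The median distance of the fallen members from the GFP-negative mean was -1.25, -1.29 and -1.11 in replicates 1 to 3. For the 13 members that rose it was 1.35, 1.31 and 1.31. Without GFP-high replicate 3, 19 members were called lower and 11 higher, and all 19 that fell kept their calls.

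**Figure D4:**
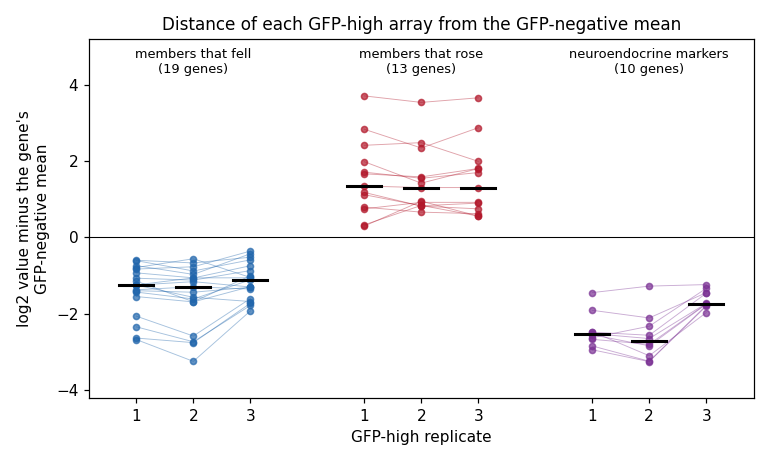
Distance of each GFP-high array from the gene's GFP-negative mean on the log2 scale, for the 19 members that fell, the 13 that rose and 10 neuroendocrine markers, with a thin line per gene and a black bar at the median of each array. Replicate 3 lies nearest to the GFP-negative mean for the neuroendocrine markers (median -1.73 against -2.53 and -2.72), and the medians of the risen members lie between 1.31 and 1.35.

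Several transporters are known targets of ATF4, the transcription factor of the amino acid response, which is translated when amino acids are scarce. Of 19 measured genes of this response outside the transporter families, 4 fell, 1 rose and 14 did not pass. The shares were 21.1% lower and 5.26% higher, against 17% and 13% of all genes. In either direction 26.3% passed, against 30% of all genes, and the median was -0.18 against 0.01 for all genes. Asparagine synthetase (Asns) fell by 1.88 ± 0.20 (adjusted p = 0.000161 by limma), the mitochondrial folate enzyme Mthfd2 by 1.64 ± 0.11 and Atf4 itself by 0.51 ± 0.13 on the log2 scale. Cebpb, a partner and target of ATF4, rose by 0.68 ± 0.12. A further list held 25 genes of the amino acid sensing route to the kinase complex mTORC1, with Mtor and Rptor of the complex itself. Of these, 7 fell, 1 rose and 17 did not pass (median -0.23). In either direction 32% passed, against 30% of all genes, with 28% lower against 17% and 4% higher against 13%. The Rag GTPase Rragb fell by 1.69 ± 0.21 and the arginine sensor Castor1 rose by 0.73 ± 0.13. Its relative Castor2 fell by 0.73 ± 0.11 and Rheb, the GTPase that activates mTORC1, by 0.68 ± 0.12.

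The amino acid response element, to which ATF4 and its partners bind, was searched as TGATGNAA on both strands of promoter windows from RefSeq (GRCm38.p6), which run from 250 bases before to 50 bases after a gene's start. Windows were found for 57 of the 77 members. A match lay in the windows of 5 members (8.77%), against 664 of 16917 genes with a window (3.93%). They were Slc1a4, which fell, Slc7a7, which rose, and Slc7a11, Slc17a1 and Slc6a21, which did not pass. The stretches below, from 150 bases before the start to 30 bases from it on, show the 2 members with a match and a called change and, chosen after its values were seen, Slc7a11, whose window holds a pair of matches. Matches are in capitals, and each stretch is printed 5′ to 3′ on the strand of the gene, the minus strand for all of them. The stretch of Slc1a4 is chr11:20332684-20332863, that of Slc7a7 chr14:54417915-54418094 and that of Slc7a11 chr3:50443584-50443763.
Slc1a4: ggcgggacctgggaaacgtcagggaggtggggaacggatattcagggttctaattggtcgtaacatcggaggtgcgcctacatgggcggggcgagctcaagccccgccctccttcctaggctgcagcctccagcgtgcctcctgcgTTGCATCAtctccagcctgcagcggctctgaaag
Slc7a7: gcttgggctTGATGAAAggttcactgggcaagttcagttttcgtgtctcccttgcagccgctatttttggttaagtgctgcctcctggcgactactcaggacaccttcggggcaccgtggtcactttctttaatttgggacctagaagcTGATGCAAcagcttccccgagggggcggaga
Slc7a11: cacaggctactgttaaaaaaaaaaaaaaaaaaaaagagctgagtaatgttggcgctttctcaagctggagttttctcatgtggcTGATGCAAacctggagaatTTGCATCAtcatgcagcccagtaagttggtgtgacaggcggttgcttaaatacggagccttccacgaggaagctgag

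The match of Slc1a4 begins 4 bases before the start site and reads on the opposite strand. In the window shown for Slc7a7, 1 of 5 windows of that gene, matches begin 141 bases and 1 base before the start, and the second of these also falls in another of its windows, 243 bases before that start. Those of Slc7a11 begin 66 and 47 bases before the start, on opposite strands, and its level did not pass. Genes with this element thus fell, rose and did not pass, and a match is a description of the letters.

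The N-box, a site bound by HES repressors, was searched as CACNAG on both strands. It lay in the windows of 32 of 57 members (56.1%), against 45.4% of genes with a window. A gene counted here if any of its windows held a match. By window, 37 of 79 member windows held one, against 41.7% of all windows. The N-box was found for 9 of 12 members that fell, 3 of 8 that rose and 20 of 37 that did not pass. The matching shares among all genes that fell, rose or did not pass were not counted, so these counts have no background.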

How the data were processed

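The authors deposited 1 table of log2 expression values from 6 arrays, made with RMA per the submitters' processing notes. The notes used here state no version or annotation release. RMA gives all arrays like distributions, which hides any shift common to most genes and compresses folds of dim rows. The log2 scale follows from the values (0.989 to 13.72). Of 41344 rows, 23520 name 1 gene, 1814 several and 16010 none. The row with the highest mean stood for a gene, giving 22179 genes. Entrez identifiers of 23327 rows were found in RefSeq, which changed 0 symbols. No filter on low values was applied, and 0 columns belonged to other samples.

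GFP-high minus GFP-negative was fitted with limma 3.58.1 in R 4.3.3 (lmFit, eBayes, 4.50 prior and 4 residual degrees of freedom), without a block, with Benjamini-Hochberg adjustment across all 22179 genes and calls at 0.05. P-values are two-sided. Intervals are 95% from the moderated fit. An exact permutation of 3 against 3 cannot give a p below 0.1, so none was run. The fit was checked on simulated data. Python 3.11.15 with pandas 2.3.3 and matplotlib 3.10.9 did the rest.

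Members, role lists, pathway lists and marker lists were chosen with earlier results of these data known. Slc6a9 had no row of its own. Values in every array are given for members called with a change of at least 1 and for others the text turns on, and at most 4 called genes of a pathway list are named, except that all genes of the glutathione list are, chosen after their values were seen.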

Additional observations from a re-analysis of the deposited data

Results flagged for a closer look

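A row that names both Slc6a9, which encodes the glycine transporter GlyT1, and Ccdc24 took no part in the comparison, because its signal cannot be given to either gene. It was higher in GFP-high cells by 0.63 ± 0.15 on the log2 scale, with 8.15, 7.80 and 8.24 against 7.29, 7.55 and 7.45 (adjusted p = 0.0275 by limma over all rows).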

How the results depend on the processing

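Of the 32 called members, 24 kept their call under all 15 alternatives other than a minimum change, and 30 kept it without each array in turn; the exceptions there were Slc1a5 and Slc7a8. Leaving out arrays gave 11 to 13 members higher and 19 to 19 lower, and 2374 to 2734 genes higher and 2940 to 3382 lower over the array. A minimum absolute log2 change of 1 left 7 members higher and 14 lower (1249 and 1335 over all genes), by its construction. Slc36a4 was lower when its rows were averaged (-0.35) or when its lowest row was used (-0.94), against 0.24 in the row reported; the cause was not tested. With the replicate number as a block 13 members were higher and 19 lower (2729 and 3443 of all genes). The numbers were not taken as pairs in the main fit, because the labels do not say whether they mark shared pools. Deviations of same-numbered arrays correlated at 0.11, -0.03 and 0.00 across genes, and those of unlike-numbered arrays at -0.07 to 0.06. These correlations cannot decide whether pools were shared, because they weigh all genes alike, also those that differ little between arrays. Macrophage marker means were 6.30, 5.80 and 6.46 in GFP-high replicates 1 to 3, and 6.35, 5.83 and 6.33 in GFP-negative ones. Leukocyte, ciliated, endothelial and fibroblast marker means were also lowest in replicate 2 of both groups. Those of the other marker lists were not. Whether this reflects shared pools was not tested. The other alternatives (centring, quantile normalization, a filter on the 30% of genes with the lowest means, other rows of a gene, trend and robust moderation, array weights, no moderation) gave 10 to 14 members higher and 15 to 20 lower, the lowest counts without moderation. The number of arrays limits the precision, and signal over background was not assessed.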
